A study of Drosophila melanogaster with 21 samples.

Results

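Glutathione transferases of Drosophila S2 cells were followed after RNA interference (RNAi) against CoVa, with the whole family of cytosolic enzymes taken as the unit of description. The members were all probesets on the array whose annotation gives a single gene symbol that starts with Gst and a class letter, which found 36 probesets of 34 genes among the 18769 probesets used. By class they were 11 probesets of class D (delta), 14 of class E (epsilon, 13 genes), 4 of class O (omega, 3 genes), 1 of class S (sigma), 4 of class T (theta) and 2 of class Z (zeta). The rule used no measured value. The total RNA came from S2 cells, a blood-cell-like line established from fly embryos, transfected by calcium phosphate with interfering RNA against CoVa, which encodes a mitochondrial protein, one of the nuclear-encoded parts of cytochrome c oxidase (10 arrays), or against GFP, a gene that flies lack, as the control (10 arrays). Both conditions therefore carry a transfected interfering RNA. The labels give 3 time courses, which the methods of the study call independent experiments: experiment 1 holds a 48 hr and a 168 hr sample of each condition, while experiments 2 and 3 each hold samples of 72, 96, 120 and 168 hr. Each CoVa array has a GFP array of the same experiment and hour, which makes 10 matched pairs, and 1 array of untransfected cells entered no comparison.

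Glutathione transferases join the tripeptide glutathione to reactive, mostly lipid-soluble molecules, among them products of lipid peroxidation, plant toxins and insecticides, and so make them soluble and ready for export. Insects have greatly expanded the delta and epsilon classes, which lie in clusters of neighbouring genes and are known for detoxification, for insecticide resistance and, for some members, for induction under oxidative stress. The sigma, omega, theta and zeta classes are shared with vertebrates. The omega enzymes mainly reduce disulfide bonds and dehydroascorbate, and the zeta enzyme is the maleylacetoacetate isomerase of tyrosine breakdown.

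The CoVa transcript was reduced in 9 of the 10 pairs. The decrease over the 4 hours ran between 58.4% and 91.0% in experiment 2 and between 24.8% and 45.6% in experiment 3, and was 72.9% at 168 hr in experiment 1, whose 48 hr pair had a CoVa to GFP ratio of 1.14. Array medians lay between 67.5 and 94.4 signal units, and a signal of 100, taken here as the level above background, was reached by 42.7% to 49.0% of the probesets. Of 9 markers of blood cells, 3 (Hml, NimC1 and He) were under 100 on every array, and the summed level of the list ran between 2809 and 7084 in CoVa RNAi cells and between 2803 and 7198 in GFP RNAi cells. Col4a1, a collagen chain, was the 1 marker of this list called over all arrays (lower), beside 17.8% of all tested probesets called. The scavenger receptor gene crq was higher at 168 hr alone (log2 difference 0.56, adjusted p = 0.0124 from limma). Of the markers of crystal cells, lamellocytes, fat body, neurons, muscle and gut the lamellocyte gene PPO3 alone was called (higher). Of those measured, only 1 of 3, 1 of 2, 1 of 3, 2 of 3, 1 of 1 and 2 of 3 had enough signal to be tested. The other lamellocyte marker, atilla, was under 100 on every array. In bulk RNA, a change in the number of cells that make a transcript and a change in transcript per cell cannot be told apart.

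Over all arrays, more glutathione transferases were higher in CoVa RNAi cells than lower. Log2 ratios below compare the means of log2(signal + 32) of CoVa RNAi and GFP RNAi cells. For the test, limma with a Benjamini-Hochberg adjusted p under 0.05, a probeset needed a signal of 100 on 3 or more of the 20 arrays, which left 9858. Of the 36 members 29 passed this filter, of which 13 were called higher and 2 lower after CoVa RNAi. Of all tested probesets 17.8% were called, 11.3% higher and 6.47% lower. The higher members were GstD2, GstD5, GstD9, GstE6, GstE7, both probesets of GstE9, GstE10, GstE11, GstE13, GstO1, GstT1 and GstT2, and the lower ones were GstE12 and GstS1. By class, 3 of 7 tested probesets of class D, 7 of 11 of class E, 1 of 4 of class O and 2 of 4 of class T were higher, 1 of class E and the only one of class S were lower, and neither of class Z was called. The median log2 ratio over all members, tested or not, was 0.07 in class D, 0.40 in class E, 0.08 in class O, 0.25 in class T and 0.05 in class Z, against 0.04 over all tested probesets. GstE9 by its probeset 1628657_at reached 100 on 10 CoVa arrays and 1 GFP array, and GstS1 on 1 CoVa array and 9 GFP arrays, so each passed the filter through the condition in which it was higher. Without the 168 hr arrays 4 members were higher and 1 lower, beside 3.31% of all tested probesets, and without experiment 2 the counts were 5 and 1, beside 3.53%. With the experiment as a block 16 were higher and 4 lower, beside 27.4% of all tested probesets, and with the matched pairs as a block 17 and 4, beside 41.7%. After quantile normalization 794 of all tested probesets were higher and 739 lower, in place of 1116 and 638.

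**Figure D1:**
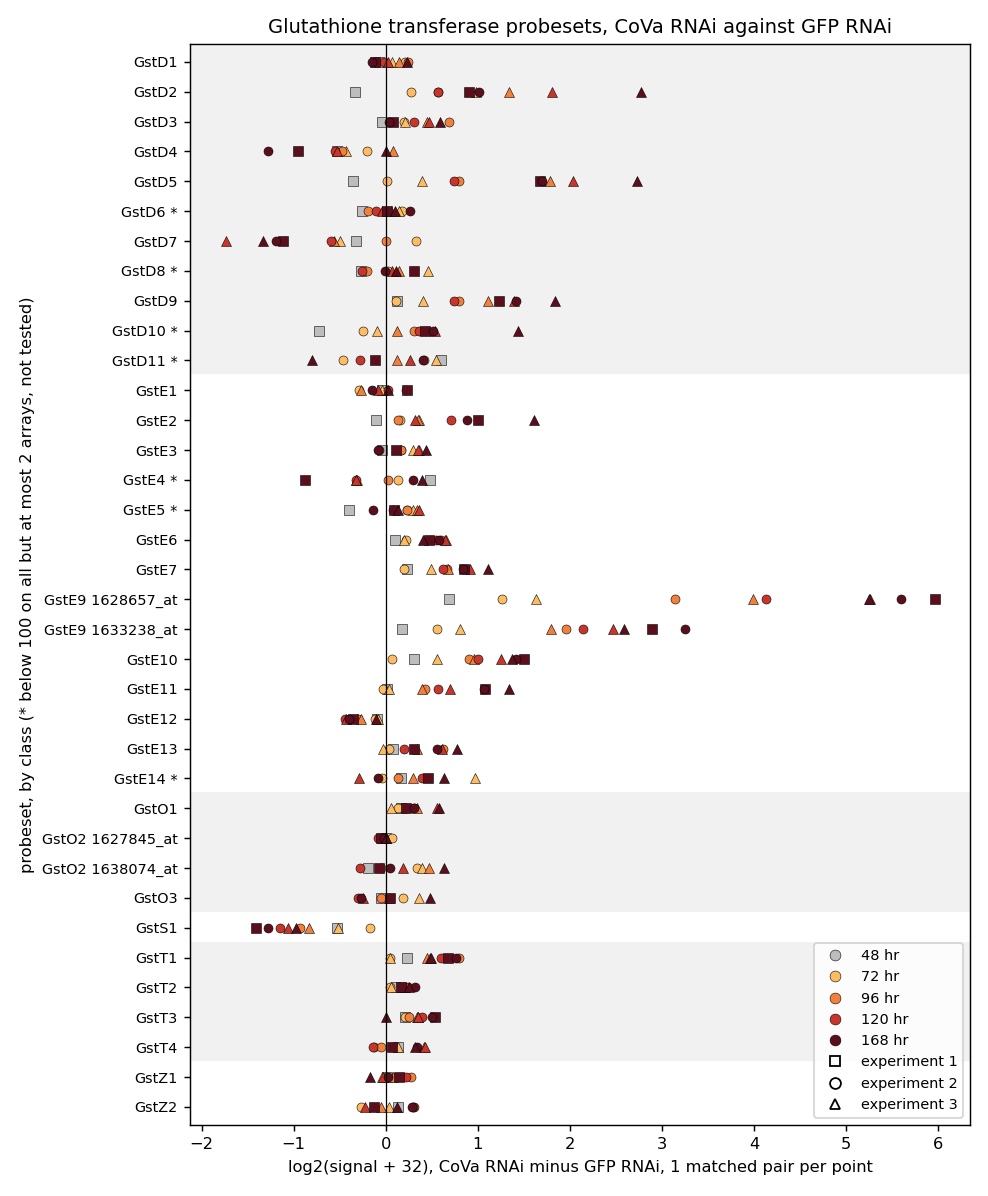
Difference in log2(signal + 32) between CoVa RNAi and GFP RNAi cells (x axis) for each of the 36 glutathione transferase probesets (y axis, by class), with 1 point per matched pair, coloured by hour and shaped by experiment. The 10 points of both GstE9 probesets lie right of 0 and spread with the hour, up to 5.97 and 3.26, while those of GstE12 and GstS1 lie left of 0.

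In class E, GstE9 had the largest rise. GstE9 is an epsilon enzyme encoded at one end of the epsilon cluster, and 2 probesets are annotated to it, 1628657_at and 1633238_at. The supplementary list of the study names the second one GstE8, after the neighbouring gene, so its identity is uncertain. With 1628657_at the signal of GstE9 was between 156 and 4987 in CoVa RNAi cells (median 1278) and between 20.2 and 149.8 in GFP RNAi cells (median 49.4). The groups did not overlap. Of the members tested 3 had no overlap between conditions, both GstE9 probesets and GstT1, all higher, beside 0.771% of all tested probesets that were higher without overlap, 0.264% lower and 1.03% in either direction. At 168 hr GstE9 (1628657_at) had signals of 3515, 3326 and 4987 in the CoVa RNAi cells of experiments 1, 2 and 3, against 24.8, 37.3 and 99.9 in the GFP RNAi cells. The GFP signals are near background, so the fold is a lower limit against a signal of 100, at least 18.4-fold over all arrays, and the log2 ratio of 3.69 (limma, SE 0.54, adjusted p = 0.00014) depends on the value added. The second GstE9 probeset, 1633238_at, was measured well above background in both conditions, with 609.6 to 3529 in CoVa RNAi cells (median 1574) and 325 to 566 in GFP RNAi cells (median 377). Its mean was 1771 ± 960 in CoVa RNAi cells and 405 ± 88.3 in GFP RNAi cells (SD, n = 10 arrays each), a ratio of 4.37 and a log2 ratio of 1.86 (limma, SE 0.27, adjusted p = 0.00012). Both probesets were called under every alternative over all arrays.

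The neighbours GstE6 and GstE7 rose by less, and in all 10 pairs. GstE6 had a signal of 8193 to 10541 in CoVa RNAi cells (median 9782) and 6214 to 8588 in GFP RNAi cells (median 6963), with a log2 ratio of 0.44 (limma, SE 0.06, adjusted p = 0.00014). The groups overlapped only through the lowest CoVa array, at 48 hr, and the highest GFP array. GstE7 had 1944 to 3449 in CoVa RNAi cells (median 2416) and 1148 to 1972 in GFP RNAi cells (median 1650), with a log2 ratio of 0.66 (limma, SE 0.11, adjusted p = 0.0004). For GstE7 the lowest CoVa array (experiment 3 at 96 hr) lay just under the highest GFP array (experiment 2 at 72 hr). Both genes stayed past the threshold under every alternative over all arrays.

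GstE10, at the other end of the epsilon cluster, was also higher in all 10 pairs, on a baseline that differed between experiments. Its signal was 178 to 419 in the CoVa RNAi cells of experiments 1 and 2 and 489 to 705 in those of experiment 3, against 107 to 179 and 212 to 399 in the GFP RNAi cells of the same experiments. Over all arrays GstE10 averaged 402 ± 181 in CoVa RNAi cells and 191 ± 90.1 in GFP RNAi cells (SD, n = 10 arrays each), which gave a log2 ratio of 0.93 (limma, SE 0.25, adjusted p = 0.0124). At 168 hr the signals of GstE10 were 419, 377 and 705 in CoVa RNAi cells and 128, 122 and 254 in GFP RNAi cells of experiments 1, 2 and 3. The log2 ratio there was 1.43 and did not pass (adjusted p = 0.0844 from limma), and with the experiment as a block it passed (adjusted p = 3.46e-05). The call over all arrays was lost without the 168 hr arrays (adjusted p = 0.273) and without experiment 2 (0.0631), and the adjusted p ran from 0.00014 to 0.273 over 15 alternatives.

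GstE11, which lies 12 protein-coding genes beyond GstE9, had nearly the same signal in the 10 GFP arrays, 1419 to 1753 (median 1541), while in CoVa RNAi cells it ranged from 1496 to 3732 (median 2198). The overlap came from the CoVa arrays at 48 and 72 hr, with 1496, 1566 and 1502. The log2 ratio of GstE11 was 0.56 over all arrays (limma, SE 0.15, adjusted p = 0.0159) and 1.16 at 168 hr (SE 0.09, adjusted p = 1.03e-05). GstE2, inside the cluster, had 383, 398 and 689 in CoVa RNAi cells and 175, 201 and 204 in GFP RNAi cells at 168 hr. At that hour GstE2 rose by 1.16 on the log2 scale (limma, SE 0.22, adjusted p = 0.00307), and over all arrays its log2 ratio of 0.54 had an adjusted p of 0.0512, or 0.0344 with the experiment as a block. GstE13, which lies apart from the cluster, had 875 to 1533 in CoVa RNAi cells (median 1256) and 736 to 1076 in GFP RNAi cells (median 953), a log2 ratio of 0.35 (limma, SE 0.10, adjusted p = 0.0247). GstE12, also apart, was the only epsilon gene called lower, with 2029 to 2526 in CoVa RNAi cells (median 2212) and 2173 to 2948 in GFP RNAi cells (median 2753). The difference of GstE12 was small, a log2 ratio of -0.26 (limma, SE 0.06, adjusted p = 0.00544), but lower in 10 of 10 pairs. GstE11 lost its call without the 168 hr arrays (adjusted p = 0.185), without experiment 2 (0.166) and without experiment 3 (0.0972). GstE12 lost its call without the 168 hr arrays (0.117) and without experiment 2 (0.203), and GstE13 lost its call without the 168 hr arrays (0.318), without experiment 2 (0.173), without experiment 3 (0.156), after quantile normalization (0.0587) and after scaling to a common median (0.158).

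The other epsilon members tested did not pass without a block. GstE3, the epsilon gene next to GstE2, had 2564 to 4672 in CoVa RNAi cells (median 3312) and 2318 to 4417 in GFP RNAi cells (median 3018), with a log2 ratio of 0.17 (limma, SE 0.13, adjusted p = 0.426, or 0.0399 with the matched pairs as a block). GstE1 lay at the background, with 80.2 to 117 in CoVa RNAi cells and 65.4 to 127 in GFP RNAi cells.

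In class D, GstD5, GstD9 and GstD2 rose. GstD5 had 289.5 to 1412 in CoVa RNAi cells (median 613) and 139 to 488 in GFP RNAi cells (median 308). At 168 hr the signals of GstD5 were 1106, 1120 and 1412 in CoVa RNAi cells and 325, 322 and 186 in GFP RNAi cells of experiments 1, 2 and 3, whereas at 48 hr, in experiment 1, they were 375 in CoVa RNAi cells and 488 in GFP RNAi cells. Over all arrays GstD5 averaged 709 ± 382 in CoVa RNAi cells and 281 ± 107 in GFP RNAi cells (SD, n = 10 arrays each), which gave a log2 ratio of 1.15 (limma, SE 0.27, adjusted p = 0.0061). GstD9 had 1461 to 4756 in CoVa RNAi cells (median 3004) and 1226 to 1913 in GFP RNAi cells (median 1449), and was higher in 10 of 10 pairs. Its log2 ratio was 0.92 (limma, SE 0.19, adjusted p = 0.0025). GstD2, a delta gene with a low signal, had 129.5 to 859.6 in CoVa RNAi cells (median 230) and 24.6 to 222 in GFP RNAi cells (median 124), with a log2 ratio of 0.99 (limma, SE 0.27, adjusted p = 0.0157). The 859.6 of GstD2 stood apart from its other CoVa signals, of which the next was 333, and both came from experiment 3.

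Without the 168 hr arrays GstD2, GstD5 and GstD9 lost their calls (adjusted p = 0.226, 0.157 and 0.0695). GstD2 and GstD5 also lost them without experiment 2 (0.112 and 0.0707), and all of GstD2, GstD5 and GstD9 lost them without experiment 3 (0.111, 0.0885 and 0.0684).

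GstD1, the delta enzyme known for breakdown of DDT and widely used in reporters of oxidative stress, was not called. Its signal was 6789 to 9074 in CoVa RNAi cells (median 8198) and 6683 to 8622 in GFP RNAi cells (median 7751). The log2 ratio of GstD1 was 0.06 (limma, SE 0.06, adjusted p = 0.616), and 6 of 10 pairs were higher. GstD3 had 1372 to 2995 in CoVa RNAi cells (median 2172) and 998 to 2937 in GFP RNAi cells (median 1843). It was higher in 9 of 10 pairs, and its log2 ratio of 0.30 did not pass (limma, SE 0.19, adjusted p = 0.322, or 0.0263 with the experiment as a block).

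For GstD4 and GstD7 8 of 10 pairs each had the lower signal in CoVa RNAi cells, and their signal also differed between experiments. GstD7 had 403 to 725 in the CoVa RNAi cells of experiments 1 and 2 and 11 to 76.4 in those of experiment 3, against 404 to 1033 and 111 to 126 in the GFP RNAi cells of the same experiments. GstD4 had 88.7 to 222 and 28.0 to 60.7 in these CoVa RNAi cells, against 247 to 288 and 52.5 to 93.6 in the GFP RNAi cells. In experiment 3 GstD4 was therefore under 100 on every array, as was GstD7 on every CoVa array. The sizes of their log2 values there depend on the value added. Without a block the log2 ratios of -0.70 for GstD7 and -0.49 for GstD4 did not pass (SE 0.60 and 0.33, adjusted p = 0.495 and 0.365 from limma). With the experiment as a block both were lower (adjusted p = 0.01 for GstD7 and 0.00827 for GstD4), and GstD4 was also lower without experiment 3 (0.0164). At 168 hr GstD7 had 460, 403 and 30.5 in CoVa RNAi cells and 1033, 964 and 126 in GFP RNAi cells of experiments 1, 2 and 3, so each pair was lower.

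**Figure D2:**
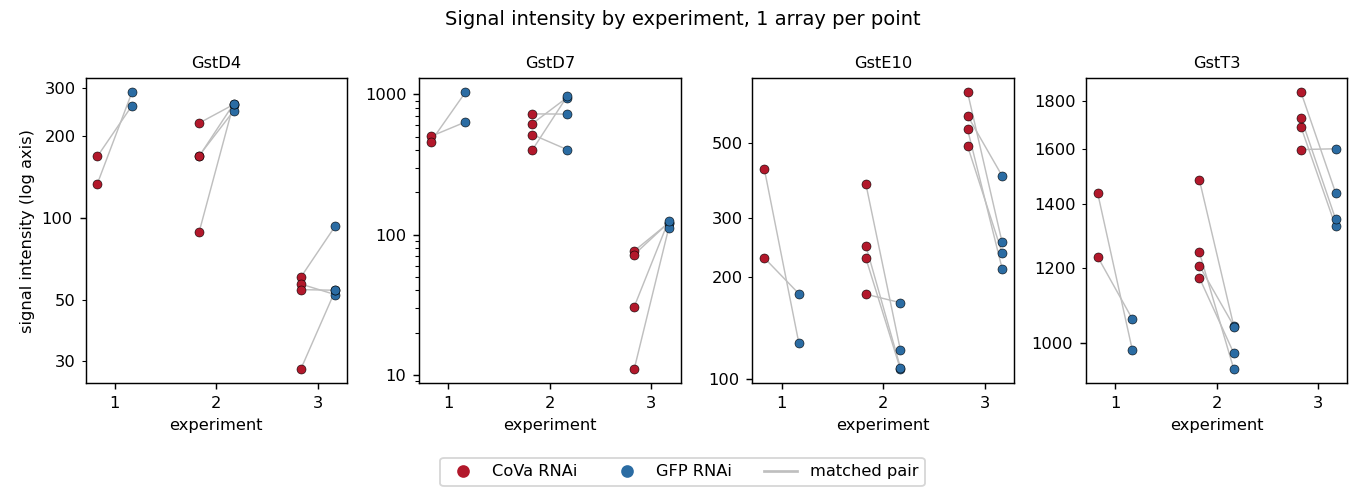
Signal intensity (y axis, log scale) of GstD4, GstD7, GstE10 and GstT3 on each array, by experiment (x axis), with CoVa RNAi left of GFP RNAi and a grey line for each matched pair. In experiment 3 the GstD7 signals lie between 11 and 126 in either condition, under all those of experiments 1 and 2, and those of GstE10 in CoVa RNAi cells lie above all those of experiments 1 and 2.

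GstS1, the single sigma enzyme of the fly, known from flight muscle and for conjugating the lipid peroxidation product 4-hydroxynonenal, fell. Its signal was 40.8 to 126 in CoVa RNAi cells (median 60.3) and 83.0 to 198 in GFP RNAi cells (median 151). The overlap came from the GFP array at 48 hr, with 83.0, which 3 CoVa arrays exceeded, while the other GFP arrays, at 129.5 or more, lay above every CoVa array. GstS1 was lower in 10 of 10 pairs, at least 1.5-fold against a signal of 100, with a log2 ratio of -0.88 (limma, SE 0.14, adjusted p = 0.00027). The CoVa mean lies below 100, so the size of that log2 value depends on the value added, and the call held under every alternative over all arrays.

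The theta members GstT1 and GstT2, which are adjacent genes, rose by small amounts. GstT1 had 2019 to 3231 in CoVa RNAi cells (median 2505), all above the 1555 to 2018 in GFP RNAi cells (median 1861), though the lowest CoVa and the highest GFP signal, both at 72 hr, nearly met. Its log2 ratio was 0.46 (limma, SE 0.09, adjusted p = 0.00174). GstT2 had 858 to 1178 in CoVa RNAi cells (median 999.5) and 824 to 1015 in GFP RNAi cells (median 887), higher in 10 of 10 pairs. The log2 ratio of GstT2 was only 0.18 (limma, SE 0.06, adjusted p = 0.0453) and was lost in 8 alternatives, with adjusted p up to 0.422. GstT1 lost its call without the 168 hr arrays (0.0761) and without experiment 2 (0.0733). GstT3 was higher in 9 of 10 pairs, with 1172 to 1838 in CoVa RNAi cells (median 1463) and 938 to 1602 in GFP RNAi cells (median 1051). Its levels were higher in experiment 3 than in experiments 1 and 2 in both conditions, and its log2 ratio of 0.31 (SE 0.11) had an adjusted p of 0.0548, or 0.0004 with the experiment as a block. GstT4 had 2010 to 2709 in CoVa RNAi cells and 1724 to 2437 in GFP RNAi cells, and did not pass (log2 ratio 0.15, SE 0.08, adjusted p = 0.188 from limma).

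Of the omega members, GstO1 was called and GstO2 and GstO3 were not. GstO1 had 422 to 613 in CoVa RNAi cells (median 502) and 372 to 461 in GFP RNAi cells (median 401), higher in 10 of 10 pairs, with a log2 ratio of 0.29 (limma, SE 0.06, adjusted p = 0.004). GstO1 lost its call without the 168 hr arrays (0.109), without experiment 2 (0.0956), without experiment 3 (0.051) and after quantile normalization (0.0603). GstO2 has 2 probesets. With 1627845_at its signal was 1356 to 1892 in CoVa RNAi cells and 1411 to 1895 in GFP RNAi cells, and with 1638074_at it was 180.1 to 281 in CoVa RNAi cells and 151 to 327 in GFP RNAi cells. The log2 ratios of these GstO2 probesets were -0.02 (SE 0.06) and 0.15 (SE 0.12). GstO3 had 1476 to 3121 in CoVa RNAi cells and 1214 to 3013 in GFP RNAi cells, a log2 ratio of 0.02 (SE 0.18), which turned to -0.019 after quantile normalization and -0.033 with a common array median. The zeta genes were not called either. GstZ1 had 420 to 674 in CoVa RNAi cells and 433 to 633 in GFP RNAi cells (log2 ratio 0.05, SE 0.10), and GstZ2 lay around the background, with 47.6 to 135 in CoVa RNAi cells and 49.6 to 122 in GFP RNAi cells.

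The 7 members that were not tested had too little signal. GstD6, GstD8, GstD11, GstE4, GstE5 and GstE14 stayed under 100 on every array. GstE14 encodes the enzyme known as Noppera-bo, which acts in ecdysteroid production in the larval endocrine gland, and its highest signal was 72.3 in CoVa RNAi cells and 45.3 in GFP RNAi cells. GstD10 reached 100 on 2 arrays, with 25.5 to 189 in CoVa RNAi cells and 25.1 to 108 in GFP RNAi cells. No result is given under the name GstE8, and whether 1633238_at, described with GstE9, measures it is uncertain.

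The differences appeared hour by hour, and none passed at 72 hr. At 72 hr 0 of 29 tested members were called in limma, beside 0.0304% of all tested probesets (0.071% with the experiment and 0.0203% with the matched pairs as a block, again with no member), and 2 members had an unadjusted p under 0.05, both probesets of GstE9, beside 2.47% of all tested probesets. At 96 hr 4 members were higher (GstD9, GstE6 and both probesets of GstE9) and GstS1 was lower, beside 1.51% of all tested probesets (1.39% higher and 0.122% lower). At 120 hr the same 4 and GstE11 were higher and GstS1 was lower, beside 3.05% (2.32% higher and 0.73% lower). At 168 hr 13 members were higher and 2 lower, beside 16.6% of all tested probesets (9.14% higher and 7.44% lower). The balance over all probesets at this hour, 901 higher and 733 lower, turned to 671 and 794 after quantile normalization and to 372 and 392 with a common array median. The members added at 168 hr were GstD2, GstD5, GstE2, GstE7, GstE13, GstO1, GstT1 and GstT2 (higher) and GstE12 (lower). Of these, GstE12, GstO1 and GstT2 passed narrowly in limma (adjusted p = 0.0498, 0.0418 and 0.0399). Each of these 3 calls at 168 hr was lost in 6 of 12 alternatives. With the experiment as a block 9 members passed at 96 hr and 12 at 120 hr, beside 5.24% and 10.8% of all tested probesets. With the matched pairs as a block the counts were also 9 and 12, beside 6.63% and 14.4%. At 168 hr either block gave 19 members, beside 33.3% of all tested probesets with the experiment and 43.1% with the pairs. GstE7, GstE10, GstE11 and GstT1 were added at 96 hr, and GstD5, GstE7, GstE10, GstE12, GstO1 and GstT1 at 120 hr, in the fit with the experiment as a block. Without experiment 2 no member was called at 96, 120 or 168 hr, and nor was any of the 9858 probesets in limma, of which 353, 500 and 1736 had an unadjusted p under 0.05 at these hours. Without experiment 3 no member was called at 96 hr, and 1 (GstE9 by 1628657_at) at 120 hr. The hours differ in replication, with 2 arrays per condition at 72, 96 and 120 hr and 3 at 168 hr, so the counts by hour are not on an equal footing.

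Onset was also described without a test, over the hours from 72 to 168. It was the first hour from which all pairs onward had a log2 difference of at least 0.58 in size and of 1 sign. By this rule 11 of the 29 tested members had an onset, beside 8.49% of all tested probesets, and none of the 7 untested members had one. GstE9 by 1628657_at was the first, at 72 hr, with log2 differences of 1.27 and 1.63 in experiments 2 and 3. The single 48 hr pair had no loss of the CoVa transcript (CoVa to GFP ratio 1.14). There 1628657_at had a difference of 0.69, from signals of 167 in CoVa RNAi cells and 91.1 in GFP RNAi cells. The size depends on the value added, since that GFP signal is under 100. Were this pair counted, the rule would put the onset of 1628657_at at 48 hr, before any loss of the CoVa transcript was seen. By 1633238_at the difference was 0.18 at 48 hr. At 72 hr it was 0.56 in experiment 2, just under the threshold, and 0.81 in experiment 3. An onset at 96 hr was found for GstD5, GstD9, GstE7, GstE10, GstE9 by 1633238_at and GstS1, where 2.03% of all tested probesets had one, after 0.345% at 72 hr, which makes 2.37% by 96 hr. GstD7 followed at 120 hr, with lower signals, beside 1.86%, and GstD2, GstE2 and GstE11 at 168 hr, beside 4.26%. The CoVa signals of GstD7 in experiment 3 were under 100, so its differences there depend on the value added. In experiment 2 its difference at 120 hr was -0.59, just past the threshold. No member of the omega, theta or zeta classes had an onset. These classes have 4, 4 and 2 probesets, too few to set none apart from the 8.49%. With a log2 difference of 1 in place of 0.58, 7 members had an onset, beside 2.73% of all tested probesets: GstE9 by 1628657_at at 72 hr and by 1633238_at at 96 hr, and GstD5, GstD7, GstD9, GstE10 and GstE11 at 168 hr.

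**Figure D3:**
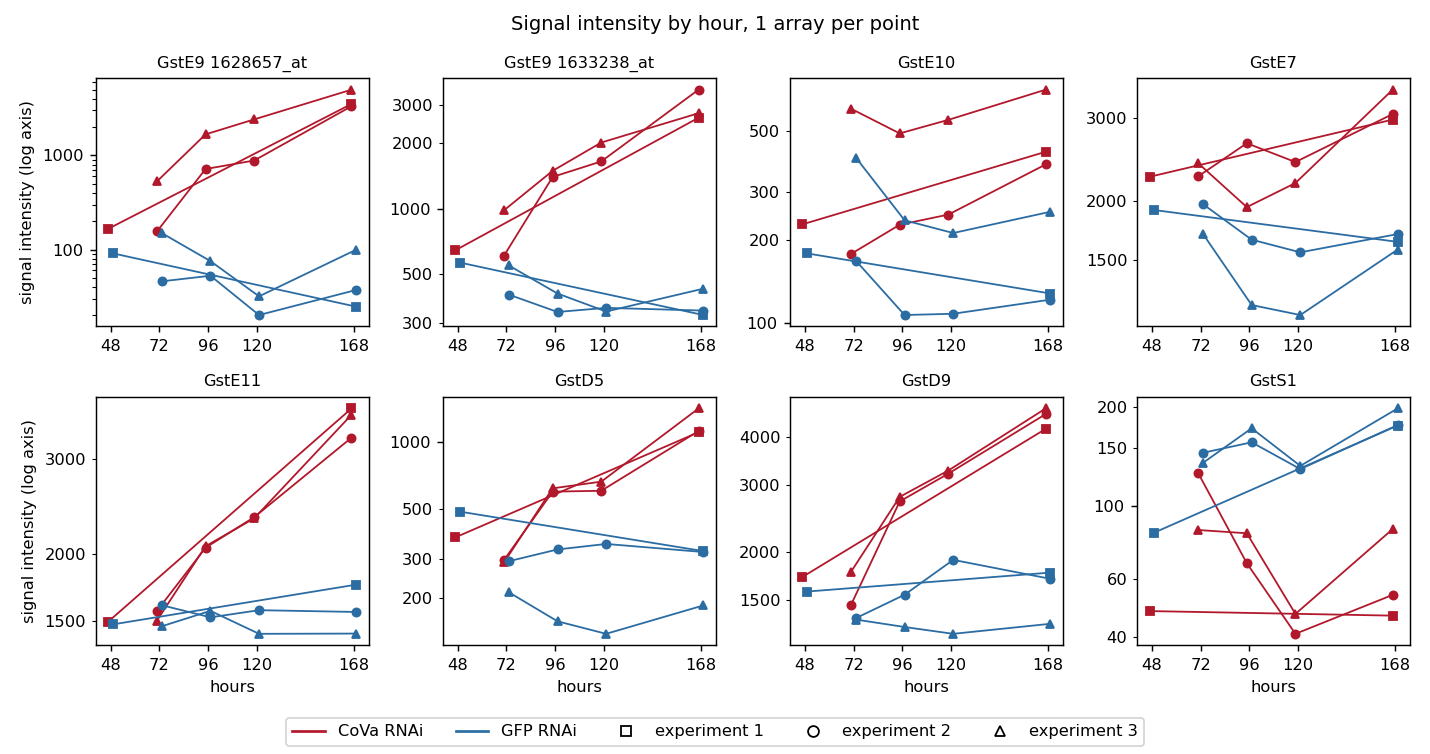
Signal intensity (y axis, log scale) by hour (x axis) of the probesets of 7 genes, with 1 array per point, CoVa RNAi in red and GFP RNAi in blue, set slightly apart, and lines joining the arrays of 1 experiment. The red lines of GstE9 by 1628657_at reach 3326 to 4987 at 168 hr while the blue ones end between 24.8 and 99.9, and for GstS1 the red points lie under the blue ones of the same hour and experiment.

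A straight line through the 10 pair differences against time gave the change of the difference per 24 hr. It was called for 10 members, 8 upward and 2 downward, beside 23.1% of all tested probesets (11.7% upward and 11.4% downward). The slope was 0.99 log2 units per 24 hr (limma, SE 0.11, adjusted p = 0.00039) for GstE9 by 1628657_at and 0.53 (SE 0.06, adjusted p = 0.00036) by 1633238_at. For 1628657_at, with 9 of 10 GFP signals under 100, the size depends on the value added (0.86 with 100 added, 1.11 with 1). It was 0.44 for GstD5, 0.28 for GstD9, 0.26 for GstE11, 0.25 for GstE2, 0.24 for GstE10 and 0.14 for GstE7. The downward slopes were -0.25 for GstD7 and -0.17 for GstS1. The size for GstS1 also depends on the value added (-0.12 with 100 added, -0.23 with 1). That for GstD7 does too, since its CoVa signals in experiment 3 were under 100. It ran from -0.32 to -0.20 over the 12 alternatives. The slope call was lost in 4 of 12 alternatives for GstD7, in 2 for GstS1, and in 1 each for GstD5 and GstE7. With the experiment as a term beside the hours GstD2 was added (slope 0.29, adjusted p = 0.00194), beside 25.8%. GstE6, which was called from 96 hr on, had a slope of only 0.06 (adjusted p = 0.18), with log2 differences at 96, 120 and 168 hr of 0.62, 0.60 and 0.48. The difference between the effect at 168 hr and that at 72 hr was tested directly and called for GstD9, both probesets of GstE9 (by 1628657_at not with 1 added before log2, adjusted p = 0.0522) and GstE11, all upward, beside 1.67% of all tested probesets (1.05% upward and 0.619% downward). With the experiment as a block GstD5, GstE10 and GstS1 were added, 7 in all, beside 7.68% of all tested probesets, with the matched pairs as a block the count was 10, beside 12.3%, and without experiment 2 there was no such call. In GFP RNAi cells alone no member had a slope past the threshold in limma, beside 0% of all tested probesets that had one. There 3 members had an unadjusted p under 0.05, GstE12 and GstS1 upward and GstE9 by 1633238_at downward, beside 5.09% of all tested probesets.

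The 2 clusters held called and uncalled neighbours side by side. In the gene order of the RefSeq annotation (Release 6 assembly), GstE10, GstE1, GstE2, GstE3, GstE4, GstE5, GstE6, GstE7, GstE8 and GstE9 follow each other on chromosome arm 2R with no other protein-coding gene between them. At 168 hr the log2 difference was 1.43 for GstE10 at one end and 5.60 for GstE9 (1628657_at) at the other, where the GFP signals are under 100 and the size depends on the value added (4.72 with 100 added, 6.39 with 1), while the neighbour of GstE10, GstE1, had 0.03. GstE2 had 1.16 and the adjacent GstE3 0.15. GstD10, GstD9, GstD1, GstD2, GstD3, GstD4, GstD5, GstD6, GstD7 and GstD8 follow each other on 3R in the same way. There the log2 difference varied between neighbours, with 1.5 for GstD9, -0.01 for GstD1, 1.57 for GstD2, 0.23 for GstD3, -0.74 for GstD4, 2.03 for GstD5 and -1.22 for GstD7. Of these GstD9, GstD2 and GstD5 were called at 168 hr without a block, and GstD4 and GstD7 with the experiment as a block (adjusted p = 0.0289 and 0.0174). For GstD2, GstD4 and GstD7 some signals at 168 hr in experiment 3 were under 100, so their sizes depend on the value added. The enzymes of a cluster are similar in sequence, and the part of cross-hybridization between their probes was not tested.

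**Figure D4:**
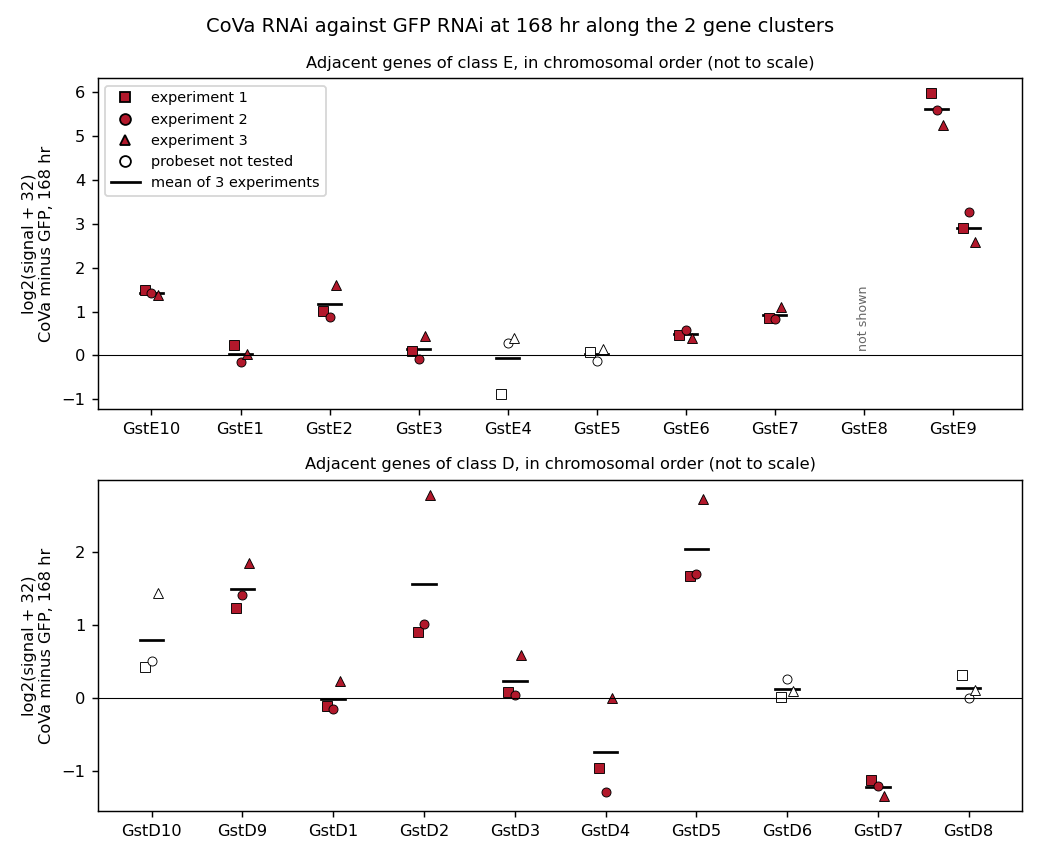
Difference in log2(signal + 32) between CoVa RNAi and GFP RNAi cells at 168 hr (y axis) for the adjacent genes of class E (top) and class D (bottom), in chromosomal order and not to scale (x axis), with 1 point per experiment and a bar at the mean. GstE9 is drawn with 1628657_at left of 1633238_at, whose identity is uncertain. Values near 0, such as -0.01 for GstD1, stand between values of 1.5 for GstD9 and 1.57 for GstD2.

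The size of the differences was set side by side for experiments 3 and 2. Experiment 3, with the shallower loss of CoVa, had the larger mean log2 difference over the 4 hours for GstD2 (1.72, against 0.61 in experiment 2), GstD5 (1.73 against 0.81) and GstD9 (1.19 against 0.77), each at 4 of 4 hours. The GFP signals of GstD2 were under 100 at 3 of these hours in experiment 3 (75.7, 24.6 and 98.4) and at 1 in experiment 2 (76.8), so its differences depend on the value added. GFP signals of GstD5 were 139 to 213 in experiment 3 and 293 to 350 in experiment 2, beside CoVa signals of 289.5 to 1412 and 297 to 1120. For GstD9 the GFP signals were 1226 to 1336 and 1347 to 1913, and the CoVa signals 1782 to 4756 and 1461 to 4597. The larger differences of these genes in experiment 3 thus also reflect lower control signals. GstE7 also had the larger value in experiment 3 (0.80 against 0.58), at 4 of 4 hours, with GFP signals of 1148 to 1705 there and 1559 to 1972 in experiment 2. GstE9 by 1628657_at had 4.03 in experiment 3 and 3.54 in experiment 2, sizes that depend on the value added. GstE9 by 1633238_at had 1.92 in experiment 3 and 1.98 in experiment 2, and GstE6 had 0.47 and 0.49. GstT1 had 0.37 in experiment 3 and 0.55 in experiment 2. With 1 culture per experiment and hour, these differences between experiments were not tested.

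Other genes of glutathione metabolism were read from lists of known function, beside the 11.3% of all tested probesets that were higher and the 6.47% that were lower over all arrays. With 1 call in each over all arrays, the lists of 2 to 7 tested genes that follow say little about the lists as such. The catalytic subunit of glutamate-cysteine ligase, Gclc, which starts glutathione synthesis, averaged 2959.5 ± 383 in CoVa RNAi cells and 2219.7 ± 346 in GFP RNAi cells (SD, n = 10 arrays each), which gave a log2 ratio of 0.42 (adjusted p = 0.00464 from limma). The modifier subunit Gclm had a log2 ratio of 0.25 (adjusted p = 0.0539). Of 3 tested genes of glutathione breakdown 1 was called, the predicted gamma-glutamyl transferase CG4829, with 219 ± 166 in CoVa RNAi cells and 735 ± 230 in GFP RNAi cells, a log2 ratio of -1.77 (adjusted p = 0.00095 from limma). At 168 hr CG4829 was also lower, while CG10365 of the same list was higher (log2 difference 0.68, adjusted p = 0.00873 from limma). Of 7 tested glutathione and thioredoxin enzymes 1 was higher, the thioredoxin reductase Trxr1, which also serves glutathione in flies (log2 ratio 0.24, adjusted p = 0.00073 from limma). Of 5 other tested proteins with a GST fold or activity the microsomal enzyme Mgstl was higher (log2 ratio 0.45, adjusted p = 0.00544 from limma).

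Pumps of the ABCC family include exporters of glutathione conjugates, and 3 of 8 tested were higher and none lower, beside the same 11.3% and 6.47%. MRP was among those not called (log2 ratio -0.03, adjusted p = 0.85 from limma). Mrp4 averaged 3221 ± 698 in CoVa RNAi cells and 1729.8 ± 412 in GFP RNAi cells (SD, n = 10 arrays each), which gave a log2 ratio of 0.88 (adjusted p = 0.00016 from limma), that of rdog was 1.18 (adjusted p = 0.0124 from limma) and that of CG31793 was 0.59 (adjusted p = 0.00505). Keap1, the inhibitor of the transcription factor Cnc that drives many glutathione transferase genes in flies, had 493 ± 126 in CoVa RNAi cells and 311 ± 60.8 in GFP RNAi cells, a log2 ratio of 0.60 (adjusted p = 0.00241 from limma). The transcript of cnc itself was not called (log2 ratio 0.94, adjusted p = 0.0934), nor was that of its partner maf-S (log2 ratio -0.20, adjusted p = 0.0525).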

How the data were processed

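Total RNA of S2 cells was hybridized to Affymetrix Drosophila Genome 2 arrays, 1 per sample. The authors deposited linear signal intensities, for which the methods name the GeneChip Operating System and dChip (scaling to the median array) and the submitters' notes name MAS5. The 183 control probesets were left out. Probesets were named by the platform annotation, and all 36 members matched RefSeq genes. The arrays come from the few independent time courses described above, each sampled at several hours. The number of time courses, more than that of arrays, therefore limits the precision. Without a block, the fit over all arrays counts each array as an independent replicate, and the slope fit counts each pair so. Their SE and adjusted p rest on this assumption. Differences were tested on log2(signal + 32) with limma 3.58.1 in R 4.3.3 (lmFit, eBayes), over all 20 arrays, with 1 mean per condition and hour, and on pair differences against time. Deviations from the group means correlated within pairs (0.956 at 72 hr, 0.774 at 96 hr, 0.785 at 120 hr and 0.582 to 0.709 at 168 hr), and the pairing comes from the independent time courses. All members are named, with array values for those averaging 100 in a condition, as are the called genes of each list with the largest change. Members, lists and tests were chosen with earlier results of these data known. The fits without a block were tried on simulated data in which each array varied independently, which does not cover the correlation within pairs. Alternatives changed the value added, normalization, filter, eBayes settings, blocks, hours and experiments.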

Additional observations from a re-analysis of the deposited data

Results flagged for a closer look

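GstD2 had a signal of 859.6 on the CoVa array of experiment 3 at 168 hr, far above the next CoVa signal of 333, a gap of 0.522 of the range of the 10 CoVa arrays. GstO2 by 1627845_at stood highest on the GFP array at 48 hr, with 1895 against the next 1601, a gap of 0.571 of the range. GstS1 stood lowest on the same GFP array, with 83.0 against the next 129.5, a gap of 0.49 of the range. Chance alone flags about 1 in 20 groups, and 58 groups were examined.

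The effect of CoVa RNAi differed between 168 hr and 72 hr by 1.24 log2 units for GstD9 (adjusted p = 0.0349 from limma), by 4.16 for GstE9 by 1628657_at (adjusted p = 0.0286), a size that depends on the value added since its GFP signals are near background (3.65 with 100 added, 4.61 with 1, the second with an adjusted p of 0.0522), and 2.23 by 1633238_at (adjusted p = 0.00375), and by 1.16 for GstE11 (adjusted p = 0.00236).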

How the results depend on the processing

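The share of all tested probesets called under the same setting stands in brackets. Over all arrays the 15 called members kept their direction under all 15 alternatives, and 5 of them (GstE6, GstE7, both GstE9 probesets and GstS1) also stayed past the threshold under each. The count of called members was 5 without the 168 hr arrays (3.31%) and lay between 6 and 14 with 1 experiment left out (3.53% to 14.3%). The methods' t-test called 15 after Benjamini-Hochberg adjustment (17.4%) and 17 without (29.8%). At 96 hr the count of 5 became 2 after quantile normalization (0.532%), 2 after scaling to a common median (0.449%), 3 without the filter (0.437%), 9 with either replicate block (experiment 5.24%, matched pairs 6.63%), and 0 to 3 with 1 experiment left out (0% to 1.01%). At 120 hr the count of 6 became 3 with a common median (1%), 12 with either block (10.8% and 14.4%), and 0 to 6 with 1 experiment left out (0% to 2.1%). At 168 hr the count of 15 became 8 with a common median (7.79%) and 0 to 17 with 1 experiment left out (0% to 25.3%). The called slopes numbered 6 to 11 with 1 experiment left out (5.91% to 16.2%). The calls of the difference between 168 and 72 hr, 4, became 2 after quantile normalization (0.594%), with a common median (0.275%) and without the filter (0.405%), 7 with the experiment (7.68%) and 10 with the matched pairs as a block (12.3%), and 0 to 3 with 1 experiment left out (0% to 0.73%). Onsets numbered 7 at a threshold of 1 (2.73%). Of uncalled members, GstO3 turned to -0.019 after quantile normalization, -0.033 with a common median and -0.0096 without the 168 hr arrays, and GstZ1 to -0.0034 after quantile normalization. With 1 experiment left out the log2 ratio lay between -0.072 and 0.10 for GstO3, -0.037 and 0.23 for GstO2 by 1638074_at, -0.00095 and 0.11 for GstZ1, -0.021 and 0.10 for GstZ2, and -0.032 and 0.17 for the median of class O. The class medians under other settings were added after seeing the data. A common median moved the median of all probesets in the difference between 168 and 72 hr to -0.12, against 0.02, and that at 168 hr to -0.05, against 0.06. With it 683 slopes of all probesets were upward and 1351 downward, against 1156 and 1123, and at 120 hr 86 were higher and 12 lower, against 229 and 72, and for the difference between 168 and 72 hr 24 and 3, against 104 and 61. At 96 and 120 hr, leaving out experiment 2 or 3 leaves 1 array per condition, assumed to vary like the others. The causes were not tested. The background limits GstE1, GstZ2 and the 7 untested members.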

Other observations

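The 1 array of untransfected cells, at 48 hr, belongs to no comparison. GstD5 had a signal of 264 there, beside 375 in CoVa RNAi and 488 in GFP RNAi cells at 48 hr. GstD2 had 103, beside 169.9 in CoVa RNAi and 222 in GFP RNAi cells, and GstD3 had 2129.97, beside 2852 in CoVa RNAi and 2937 in GFP RNAi cells. GstS1 had 125, beside 47.9 in CoVa RNAi and 83.0 in GFP RNAi cells. GstE9 by 1628657_at had 74.3, beside 167 in CoVa RNAi and 91.1 in GFP RNAi cells, and by 1633238_at 416, beside 645 in CoVa RNAi and 566 in GFP RNAi cells. GstD9 had 1549.8, beside 1726 in CoVa RNAi and 1581 in GFP RNAi cells.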
